A study of Mus musculus with 2 samples.

Results

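The nuclei described here are excitatory neurons of the injured mouse spinal cord in which neither Ebf2 nor Lmx1b, 2 transcription factors of dorsal excitatory neurons, was detected. They were chosen by counts of unique molecular identifiers (UMIs, each marking 1 captured RNA molecule) in nuclei with more than 1500 UMIs and under 5% mitochondrially encoded UMIs. A member had at least 8 UMIs summed over the neuronal genes Snhg11, Rbfox3, Syt1 and Celf4, and at least 1 UMI of Slc17a6, the vesicular glutamate transporter of most spinal excitatory neurons. It had at most 1 UMI over the inhibitory genes Gad1, Gad2, Slc32a1 and Slc6a5, at most 1 over the cholinergic genes Chat and Slc5a7, and 0 UMIs of Ebf2 and of Lmx1b. The rule found 495 nuclei in the PBS library and 627 in the AEVs library, 1122 of 32380 barcodes in all and of 25256 within the UMI and mitochondrial limits.

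Both libraries were made from frozen spinal cord of wild-type C57BL/6 mice aged 6 to 8 weeks, each from a pool of 3 animals, so that every group is 1 library. All animals had a contusion at T10, for which a 5 g impactor of 1 mm diameter fell from 6 cm, received prophylactic antibiotics and were killed on day 7. The AEVs group received 5 daily tail vein injections of athlete-derived extracellular vesicles, with 100 µg of vesicle protein in 100 µL of PBS each, and the PBS group received 100 µL of PBS in the same way. No uninjured library was used here, and which mouse a nucleus came from is not given, so library, pool and treatment cannot be told apart.

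Spinal excitatory neurons release glutamate, which Slc17a6 loads into synaptic vesicles, and they arise from several progenitor domains that leave lasting transcription factor codes. In the superficial dorsal horn most of them carry Lmx1b, Tlx3, Prrxl1 and Ebf genes and relay or gate itch, pain and temperature signals. Deep dorsal and ventral types, such as the V2a neurons, the V3 neurons marked by Sim1 and the dI1 lineage marked by Lhx2, Lhx9 and Barhl genes, take part in locomotor circuits and ascending tracts. Zfhx3 and Onecut2 are commonly found in long-range projecting spinal neurons, and Nfib in local ones.

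Members held 7438337 UMIs in the PBS library and 7045791 in the AEVs library, with medians of 12443 and 9625 UMIs and 4444 and 4055 genes per nucleus. PBS members were therefore read more deeply, as were PBS nuclei of the other neuron classes. The libraries shared 177 barcodes, and none of them was a member in both. With 1 library per group no test between libraries exists, and all intervals given are exact 95% intervals that cover counting error only, not differences between mice. Levels are given as CPM, UMIs per 1000000 UMIs of the class, ratios are AEVs over PBS on the log2 scale, and a gene was called at a ratio of 1.5-fold or more if it had at least 50 UMIs over both libraries.

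Values of the genes used by the rule are a description. Slc17a6 had a median of 4 UMIs in PBS members (1 to 23) and 3 in AEVs members (1 to 12), and 94 and 146 members held exactly 1 UMI. Just outside that limit, 167 and 280 nuclei met every other condition with 0 Slc17a6 UMIs. The neuronal genes summed to medians of 83 and 77 UMIs, and 63 and 92 members carried 1 inhibitory UMI. A single UMI of Ebf2 or Lmx1b kept out 172 and 260 nuclei, and 2 or more kept out 927 and 1341. These 1099 PBS and 1601 AEVs nuclei, called dorsal-type excitatory below, are the nearest class for comparison, with 1315 and 1785 inhibitory nuclei (at least 3 inhibitory UMIs) as another. Levels of neuronal genes outside the rule are a description too, because the nuclei compared were chosen for having few neuronal UMIs. Elavl4, an RNA-binding protein of neurons, was at 245 and 187 CPM, against 19.5 and 22.5 in nuclei with at most 1 neuronal UMI. Grin1, the obligatory NMDA receptor subunit, was at 246 and 307 against 10.6 and 10.4. These 2 genes do not bear on the excitatory part of the label.

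Some members carried RNA of glia as well. When members were clustered among themselves, 3 of 13 clusters held at least 4 raised markers of another cell type: cluster 5 was led by the myelin genes Mog and Mal, cluster 8 by the myeloid genes Cd74 and C1qa, and cluster 10 by the astrocyte genes Aqp4 and Agt. They held 96 PBS members (19.4%) and 120 AEVs members (19.1%). Scrublet called 65 PBS members (13.1%) and 115 AEVs members (18.3%) doublets, of which 64 and 107 lay in these clusters. Results that could follow such RNA are given below with and without these clusters. How many nuclei are set apart depends on the resolution of the clustering. At the resolution used, 0.8, these clusters held 216 members. The same criterion marked 4 clusters with 541 members at resolution 0.5 and 5 clusters with 354 at 1.2. Values outside these clusters were computed at resolution 0.8 only.

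Members were richer in ventral and deep dorsal excitatory identities than dorsal-type nuclei. Of 20 transcription factors of the V2a, V3, V0, dI1 and dI3 lineages, 18 were detected in a larger share of members than of dorsal-type nuclei in both libraries, and 18 in a larger share than of inhibitory nuclei. Of all genes found, 60.2% and 32.3% were. After thinning every nucleus to 3000 UMIs, which removes the depth difference and leaves out 8 PBS and 22 AEVs members, 14 of the 20 were larger in members than in dorsal-type nuclei, against 30.5% of all genes. Median depth was 12443 and 9625 UMIs in members, 9279 and 7170 in dorsal-type and 11870 and 9351 in inhibitory nuclei. The inhibitory class, which should lack the V2a and V3 genes, gives the level that free RNA may set.

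Shox2, which marks a part of the V2 lineage and other rhythm-related neurons, had a UMI in 6.06% (4.13 to 8.54) and 3.99% (2.6 to 5.83) of PBS and AEVs members. It had a UMI in 0.637% and 0.437% of dorsal-type and 0.152% and 0.168% of inhibitory nuclei, so the intervals of members lay above the shares of both classes. Lhx4, a LIM factor of V2 neurons, was found in 5.86% and 3.35% of members and Sox14 in 3.43% and 2.55%.

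The V3 gene Sim1 had a UMI in 1.62% and 1.91% of members, 0.364% and 0.375% of dorsal-type nuclei and 0 inhibitory nuclei. Nkx2-2, which V3 progenitors share with the oligodendrocyte lineage, was found in 4.04% and 3.67% of members and in 6.2% and 5.98% of nuclei with at most 1 neuronal UMI, so its share in members is not above that of other cells. Olig3, a progenitor factor of dorsal and V3 lineages, was found in 3.43% and 3.19% and Uncx in 12.1% and 12.1% of members, against 0.546% and 0.5% and 7.83% and 5.06% of dorsal-type nuclei. For the dI1 lineage, which includes spinocerebellar and commissural neurons, Lhx2 was found in 3.43% and 2.55%, Lhx9 in 3.43% and 3.03% and Barhl2 in 2.63% and 3.03% of members. In dorsal-type and inhibitory nuclei of either library these 3 reached at most 0.364%. Isl1, the dI3 factor, was found in 3.43% and 2.87%, and Pou4f1, expressed by dI1 to dI3 and some dorsal horn neurons, in 14.1% and 10.8% of members against 7.55% and 4.5% of dorsal-type nuclei.

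The V0 genes were at or near the floor. Evx1 was found in 0.202% and 0.319% of members and Evx2 in 0.404% and 0.478%. Dbx1, a progenitor gene, was found in 0 of 495 and 0 of 627 members, where the limit of 3 counts allows a UMI in up to 0.606% and 0.478% of such nuclei.

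**Figure D1:**
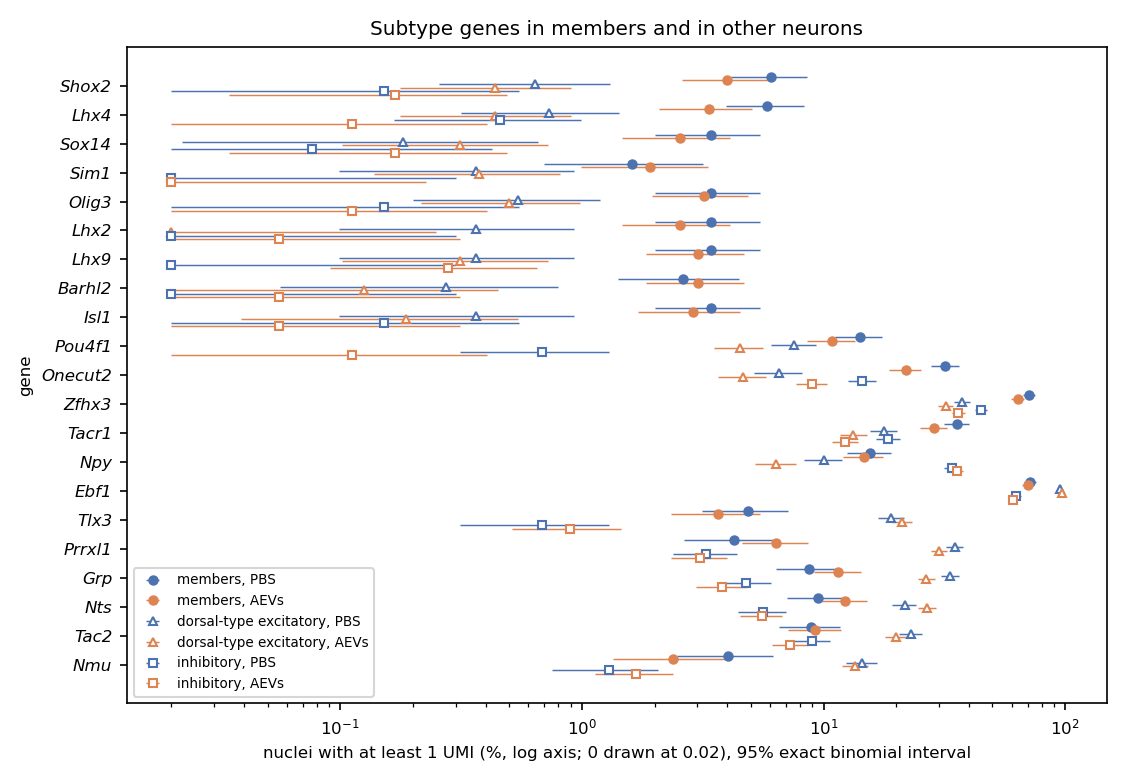
Share of nuclei with at least 1 UMI of each subtype gene (percent, log axis, 0 drawn at 0.02) in members (filled circles), dorsal-type excitatory nuclei (triangles) and inhibitory nuclei (squares) of both libraries, with exact binomial 95% intervals. The V2a, V3, dI1 and dI3 genes at the top sit far to the right of the other classes in members from Shox2 to Isl1, while Tlx3, Prrxl1, Grp, Nts, Tac2 and Nmu at the bottom are higher in dorsal-type nuclei.

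Factors of both the projection-type and the local-type lists were found in larger shares of members than of dorsal-type nuclei. Of 6 projection-type factors 6 were, or 5 after thinning, and of 7 local-type factors 6 were, with 6 after thinning. Pou2f2 was the projection-type exception, at 7.6% and 8.43% of thinned members and 7.82% and 7.45% of thinned dorsal-type nuclei. Zfhx3, a large homeodomain factor at chr8:107942644-108961630 (+ strand) in mm10, was at 589.9 in the PBS library and 399.5 in the AEVs library and was found in 70.9% and 63.8% of members, against 37.5% and 32% of dorsal-type and 44.9% and 36.2% of inhibitory nuclei. With nuclei thinned to 3000 UMIs the shares were 51.3% and 42.5% in members and 19.9% and 17% in dorsal-type nuclei. Onecut2, a cut homeodomain factor, was found in 31.9% and 21.9% of members and 6.55% and 4.62% of dorsal-type nuclei, and Onecut1 in 5.25% and 4.94% and 0.728% and 0.687%. Among the local-type factors, Nfia was found in 67.1% and 56.1% of members and 35.9% and 32.2% of dorsal-type nuclei, or 40.0% and 32.1% and 21% and 17.3% after thinning. Nfib was found in 36.6% and 37.6% and 29.8% and 29.8%, and Tcf4 in 83.4% and 78.5% and 69.4% and 57.8%. Zfhx3 and Nfib tended to lie in different members: after thinning, both were found in 4.72% of PBS and 4.96% of AEVs members, where independent detection would give 10.5% and 9.41%.

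Dorsal horn identity genes were lower, though not absent. Tlx3, a selector of dorsal glutamatergic fate, was found in 4.85% and 3.67% of members against 19% and 21.1% of dorsal-type nuclei. Prrxl1, a homeodomain factor of the nociceptive circuit, was found in 4.24% and 6.38% against 34.8% and 30.0%, and Lbx1 in 1.62% and 2.23% against 5.55% and 8.81%. Ebf1, a relative of Ebf2 that the rule did not use, was found in 71.5% and 69.9% of members and 95.5% and 96.6% of dorsal-type nuclei, and Ebf3 in 51.3% and 44% and 83.4% and 73.6%. A member therefore lacked Ebf2 and Lmx1b without lacking the Ebf family.

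Markers of the other neurons that the rule could have let in were low. Pax2, the main factor of dorsal inhibitory neurons, was found in 4.04% and 3.99% of members and 64.2% and 53.5% of inhibitory nuclei. The cholinergic vesicle transporter Slc18a3 was found in 1.21% and 0.957% of members and 1.07% and 0.468% of nuclei with at most 1 neuronal UMI, whose median depth was only 2505 and 2244 UMIs, so its share in members cannot be read as expression. Of the sensory ganglion markers, Mrgprd was found in 0 members, and Scn10a, Scn11a, Prdm12, Trpv1 and Avil in at most 2.02% of either library. Isl1, the dI3 factor that is also on this list, was the highest of it, at 3.43% and 2.87% of members. Slc17a7, the cortical vesicular glutamate transporter that also marks Clarke column and some sensory neurons, was found in 0 PBS members, where the limit of 3 counts allows a UMI in up to 0.606%, and in 5 of 627 AEVs members.

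The rule separates these classes by Ebf2 and Lmx1b, so the differences between them are given as a description. Over all genes, 5.86% were at least 1.5-fold higher and 6.1% at least 1.5-fold lower in members than in dorsal-type nuclei of both libraries, of 15485 tested. The highest, ranked by the weaker library, included Klhl14, Hsd17b2, Onecut2, Nox4, Lhx1os, Rnf207, Zfhx3, Dysf and Npy. Klhl14 was 5.88-fold and 11.5-fold higher in the PBS and AEVs libraries and Hsd17b2, a steroid dehydrogenase, 4.75-fold and 5.09-fold. Zfhx3 was 4.59-fold and 3.68-fold higher and Npy, the neuropeptide Y gene, 3.42-fold and 9.15-fold. Npy was uneven among members, with 75.5% and 72.4% of its UMIs in the 10 richest nuclei of each library. It had a UMI in 15.6% and 14.7% of members and in 110 of 1099 and 102 of 1601 dorsal-type nuclei, but in 34.1% and 35.5% of inhibitory nuclei, and its level in members was 0.549 and 0.373 of that in inhibitory nuclei. The same held for Klhl14, at 0.265 and 0.342 of the inhibitory level, Lhx1os, at 0.295 and 0.235, and Nox4, at 0.548 and 0.327, whereas Zfhx3, Onecut2 and Dysf were above it in both libraries.

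The 10 lowest were Ccdc172, Nmu, Tac2, Tll2, Gmnc, Grpr, Nts, Dclk3, Car12 and Mafa, several of which mark superficial dorsal horn types. Nmu, neuromedin U, was 24.9-fold and 22.9-fold higher in dorsal-type nuclei than in members, at 3.23 and 4.68 CPM in members. Tac2, the neurokinin B gene, was 18-fold and 17.6-fold higher there, and Nts, neurotensin, 16.8-fold and 9.92-fold. Grpr, the itch-related receptor for gastrin-releasing peptide, was found in 0.606% and 1.12% of members and 8.64% and 6.43% of dorsal-type nuclei, and its ligand Grp in 8.69% and 11.5% and 33.4% and 26.7%. Tacr1, the substance P receptor of spinal projection neurons, went the other way, with 35.8% and 28.7% of members and 17.7% and 13.3% of dorsal-type nuclei.

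Members were not 1 type. The clusters are used here to describe them, since the genes that lead a cluster also formed it, and they are called by number. Outside the clusters with glial RNA, cluster 1 (173 nuclei) was led by Sema3a, Nxph4 and Dach2 and held the highest level of Shox2, at 18.5 CPM. Cluster 2 (162 nuclei), the deepest, with a median of 20127 UMIs, was led by Scn4b, Esrrg and Syt2. Cluster 3 (139 nuclei) was led by Mecom, Npy and Piezo2 and had Zfhx3 at 1424 CPM. Its Barhl2 level of 10.3 and Lhx9 level of 9.66 were also the highest of the 13 clusters.

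Cluster 4 (129 nuclei) was led by Cdh23, Nfib, Nms and Zic1, with Nfib at 599 and Zfhx3 at only 42 CPM. Cluster 6 (91 nuclei) was led by Npff, Maf, Adarb2 and Ebf1, with Sst, somatostatin, at 1156. Cluster 7 (90 nuclei) was led by Cck, Tac1, Skor1 and Gal, 3 of which encode peptides. Cluster 9 (40 nuclei) was shallow, with a median of 5218 UMIs, and was led by the neurofilament genes Nefh, Nefl and Nefm and by Pvalb. Cluster 11 (34 nuclei) was led by Sprr1a, Atf3, Ret and Ecel1, genes known from axotomised neurons. Cluster 12 (34 nuclei) was led by Pdyn and Abi3bp and had Pou4f1 at 119. Cluster 13 (14 nuclei) was led by Unc5cl, Arhgap6 and Skor2. PBS nuclei made up 21.4 to 62.5% of a cluster, so every cluster held nuclei of both libraries.

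Sprr1a and Atf3, which rise in neurons with cut axons in other studies of the nervous system, were found in few members. Sprr1a had UMIs in 22 PBS and 25 AEVs members, and the 10 richest held 94.3% and 89.5% of its UMIs. Both genes were found together in 6 PBS and 4 AEVs members, 1.21% and 0.638%, against 0.108% and 0.102% if independent. After thinning, 2 PBS and 0 AEVs members held both.

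Members were a slightly smaller share of neurons in the AEVs library, though not of all nuclei. They were 495 of 3698 nuclei with at least 8 neuronal UMIs in the PBS library, 13.4% (12.3 to 14.5), and 627 of 5271 in the AEVs library, 11.9% (11 to 12.8). The ratio of the shares, AEVs over PBS, was 0.889 (interval 0.789 to 1). The interval just reaches 1 here and lies below 1 in 5 of 6 alternatives (more UMIs per nucleus, no doublet calls, stricter gene limits, thinning), and the ratios ran from 0.842 to 0.891. Among excitatory nuclei the shares were 31.1% and 28.1%. Of all nuclei within the UMI and mitochondrial limits, members were 4.17% (3.82 to 4.55) in the PBS library and 4.68% (4.33 to 5.05) in the AEVs library. Nuclei with at least 8 neuronal UMIs were 31.2% and 39.4% of the same nuclei. AEVs nuclei were shallower, and the part of depth and of differences between mice in these shares was not tested.

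Between the libraries, 12.9% of 12967 genes were at least 1.5-fold higher and 2.24% at least 1.5-fold lower in AEVs members. The median log2 ratio of all genes was 0.13, and scaling by TMM or by the median of ratios lowers every log2 ratio by 0.15 or 0.13, so ratios are best read against 0.13 rather than 0. The ratio went with gene length and with level. The genes were split by span into 4 equal classes. Those in the shortest class, with spans up to 12 kb, had a median of 0.36, the next classes 0.22 and 0.07, and the longest, from 70.7 kb, -0.06. Dorsal-type nuclei ran from 0.30 to -0.07 and inhibitory nuclei from 0.35 to -0.11, so the same trend ran through the other neuron classes. Split by level into 4 classes instead, the genes of members had medians from 0.25 in the lowest class to 0.00 in the highest. In members, 26.4% of the shortest class and 4.91% of the longest were at least 1.5-fold higher in the AEVs library. By level, 24.4% of the lowest class and 5.96% of the highest were. The 12.9% set beside the list counts below is not matched for length or level. The part of gene length and of level in the single ratios and list counts below was not tested.

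Among named genes found in at least 5% of members and not mainly in other cells (at least 0.5 of the level in nuclei with at most 1 neuronal UMI), with at least 50 UMIs in the AEVs library, the 12 with the highest ratios were BC051142, Vmn2r1, Ovgp1, Tfr2, Slc18a1, Zfas1, Tshr, Snhg8, Hexim2, Zfp46, Apoa1 and Epb41l4aos. Ovgp1, an oviduct glycoprotein gene, was at 12.4 in the PBS library and 44 in the AEVs library, a log2 ratio of 1.83 (interval 1.49 to 2.18), with 1.69 in dorsal-type and 1.83 in inhibitory nuclei. Vmn2r1, a vomeronasal receptor gene, was at 2.55 and 10.5, a ratio of 2.04 (interval 1.30 to 2.85). Slc18a1, a vesicular monoamine transporter, was at 3.09 and 10.1, a ratio of 1.70 (interval 1.01 to 2.45). For 11 of the 12 the ratio was above 0 in dorsal-type nuclei as well, where 64.5% of all genes were above 0. The exception was Tshr, the thyrotropin receptor, at 4.44 and 14.2 in members with a ratio of 1.68 (interval 1.10 to 2.29) and at 3.5 and 2.81 in dorsal-type nuclei with a ratio of -0.31; the difference between the classes was not tested.

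Under the same limits in the PBS library, the 12 genes with the lowest ratios were Erich6, Itga10, Glp1r, Hsph1, Gna14, Morc2b, Stk36, Spink10, Thsd4, Olfr1564, Nefh and Ighm. Itga10, an integrin chain, was at 11.4 in the PBS library and 3.97 in the AEVs library, a log2 ratio of -1.52 (interval -2.20 to -0.89). Spink10, a protease inhibitor gene, was at 108 and 51.2, a ratio of -1.08 (interval -1.26 to -0.89), and Thsd4, a matrix protein gene, at 105 and 49.7, a ratio of -1.07 (interval -1.26 to -0.89). Glp1r, the glucagon-like peptide receptor, was at 7.13 and 2.55 CPM, from 53 and 18 UMIs, a ratio of -1.48 (interval -2.34 to -0.68). In dorsal-type nuclei Glp1r was at only 0.325 and 0.962, too few UMIs for a ratio to be read.

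**Figure D2:**
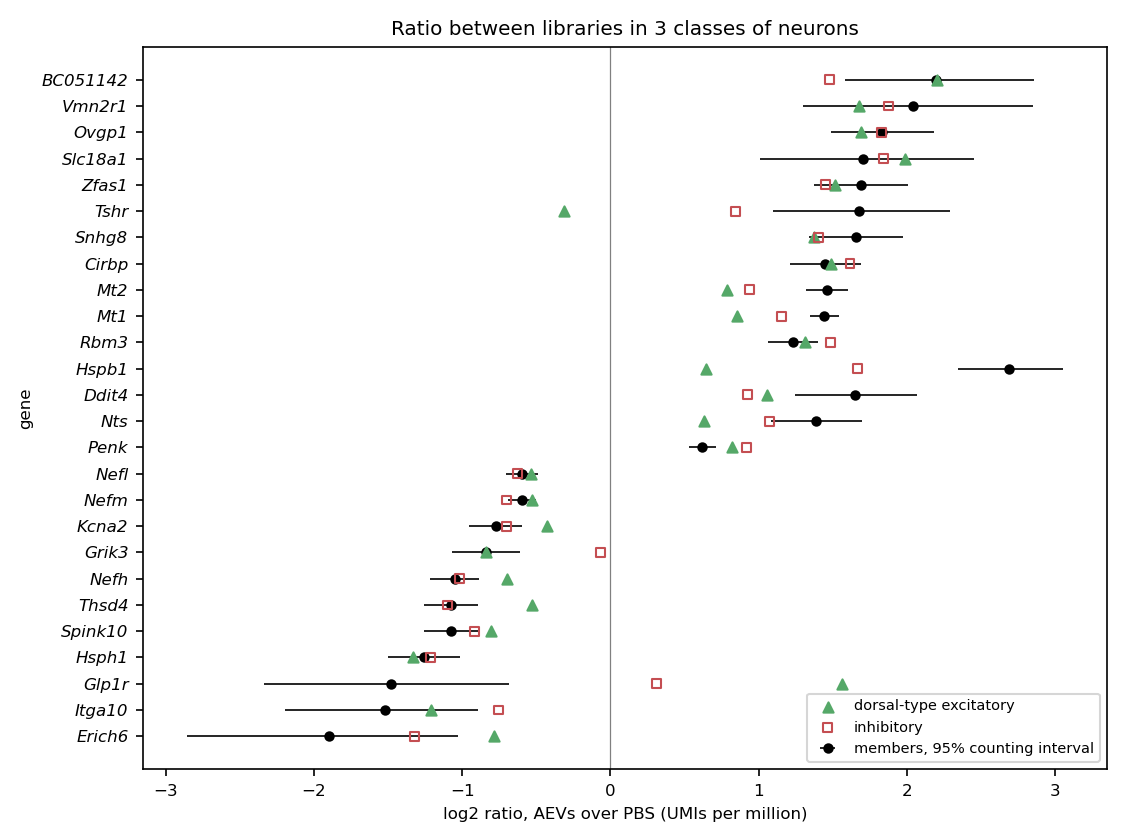
Log2 ratio of AEVs over PBS (horizontal axis, from CPM) of named genes in members (black circles, exact 95% counting interval), dorsal-type excitatory nuclei (green triangles) and inhibitory nuclei (open red squares). Ovgp1, Zfas1, Cirbp and Hsph1 have like ratios in the 3 classes, while Hspb1 and Tshr are higher and Glp1r lower in members than in the other classes, with few UMIs of Glp1r in dorsal-type nuclei.

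Cold-inducible genes were higher and 2 heat shock genes lower in AEVs members. Of 12 listed genes, 3 of 10 measured genes were at least 1.5-fold higher and 2 at least 1.5-fold lower in the AEVs library, with a median log2 ratio of -0.06, where 12.9% of all genes were higher and 2.24% lower. Cirbp and Rbm3, RNA-binding proteins that cells make at lowered temperature, were at 27.7 in the PBS library and 75.6 in the AEVs library for Cirbp, a log2 ratio of 1.45 (interval 1.22 to 1.69), and at 56.2 and 132 for Rbm3, a ratio of 1.23 (interval 1.07 to 1.40). Cirbp had a UMI in 31.7% of PBS and 53.4% of AEVs members, although AEVs members were shallower. Hsph1, an HSP110 chaperone, was at 67.8 and 28.4, a ratio of -1.26 (interval -1.50 to -1.02), and had a UMI in 59.0% and 25.5% of members. Cryab, a small heat shock protein also abundant in glia, was at 73.5 and 46.6, a ratio of -0.66 (interval -0.86 to -0.46). The constitutive chaperone Hspa8 did not share this, at 345 and 359 with a ratio of 0.05, nor did Hsp90aa1, at -0.16. Hspb1 was at 10.5 and 67.7, a ratio of 2.69 (interval 2.34 to 3.06), but 10 nuclei held 64.1% and 68.8% of its UMIs, and without doublet calls the ratio was 1.74.

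These differences were shared by other nuclei of the same libraries. The Cirbp ratio was 1.49 in dorsal-type, 1.62 in inhibitory and 1.63 in nuclei with at most 1 neuronal UMI. The Hsph1 ratio was -1.33, -1.21 and -0.51 in the same order. Among members, Cirbp and Rbm3 were higher in the AEVs library in each of the 6 clusters with at least 25 nuclei of both libraries, by 0.50 to 2.58 and 0.63 to 1.66, and Hsph1 was lower in all 6.

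Cirbp is shown because it is the gene of this pair with a RefSeq promoter entry here. The 250 bases before the start of the entry used are chr10:80167589-80167838 (GRCm38.p6, + strand). They lie within the GENCODE span of the gene, chr10:80165985-80172786. TCCCCGCC, letters described as a mild cold response element, is in capitals.
Cirbp: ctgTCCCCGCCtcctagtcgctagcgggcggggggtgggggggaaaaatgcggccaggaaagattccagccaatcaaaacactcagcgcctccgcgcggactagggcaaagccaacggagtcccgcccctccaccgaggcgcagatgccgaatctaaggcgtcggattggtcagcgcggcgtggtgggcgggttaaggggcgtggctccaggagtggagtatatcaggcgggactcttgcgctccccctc
The letters TCCCCGCC, searched on both strands, occurred once here and in 4.64% of 32851 promoters of the same length. A match of letters describes the sequence and does not show binding.

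Metallothionein genes were higher in AEVs members. Mt1 and Mt2, small proteins that bind zinc and copper and respond to metals and glucocorticoids, were at 159 in the PBS library and 432 in the AEVs library for Mt1 and at 74.7 and 206 for Mt2. Their log2 ratios were 1.44 (interval 1.34 to 1.54) and 1.46 (interval 1.32 to 1.61). Mt1 was far higher in other cells: nuclei with at most 1 neuronal UMI had it at 1099.9 and 2061, and the astrocyte-led cluster 10 at 2924. Outside the clusters with glial RNA, Mt1 was at 86.5 and 216 and Mt2 at 33.7 and 88.4, with ratios of 1.32 and 1.39. Without doublet calls the ratios were 0.97 and 0.90, and within each of 6 clusters both genes were higher in the AEVs library. What part free RNA of other cells has in these levels was not tested.

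The 2 genes lie next to each other on chromosome 8, and their upstream sequences are shown because both genes were higher in AEVs members. The capitals mark TGCACNC or TGCGCNC, the core letters of the metal response element, on either strand, in Mt1 at chr8:94178839-94179088 and Mt2 at chr8:94172368-94172617 (RefSeq, GRCm38.p6, both on the + strand).
Mt1: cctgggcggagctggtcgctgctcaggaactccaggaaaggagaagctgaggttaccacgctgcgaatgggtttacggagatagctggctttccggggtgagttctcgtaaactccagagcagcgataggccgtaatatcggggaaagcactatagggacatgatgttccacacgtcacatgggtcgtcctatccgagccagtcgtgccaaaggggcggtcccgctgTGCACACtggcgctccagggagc
Mt2: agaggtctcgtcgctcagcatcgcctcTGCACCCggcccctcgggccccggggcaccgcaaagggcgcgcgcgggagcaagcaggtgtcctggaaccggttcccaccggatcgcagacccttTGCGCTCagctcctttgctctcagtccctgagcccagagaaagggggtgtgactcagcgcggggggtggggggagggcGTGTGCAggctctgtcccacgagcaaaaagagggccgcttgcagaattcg
Mt1 held 1 match and Mt2 3 in these 250 bases. Of 32851 promoters of this length, 21.4% held at least 1 and 1.26% at least 3, so 1 match is common and 3 are rare. The windows belong to the first RefSeq entry of each gene, and bases after their ends were not searched. They end at 94179088 for Mt1 and 94172617 for Mt2, where the GENCODE spans begin at 94179082 and 94172664. The counts therefore describe these windows and not the whole promoter of either gene.

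Among 13 listed glucocorticoid-responsive genes, 6 of 13 measured genes were at least 1.5-fold higher and 0 at least 1.5-fold lower in the AEVs library, with a median log2 ratio of 0.53, where 12.9% of all genes were higher and 2.24% lower. Besides Mt1 and Mt2 the higher ones were Hif3a at 2.42 and 9.08, Pdk4 at 1.21 and 6.1, Cebpd at 4.71 and 11.5 and Nfkbia, the inhibitor of NF-kappa B, at 18.7 and 37.6, with ratios of 1.91, 2.33, 1.29 and 1.01. Other genes of the list did not follow: Tsc22d3 was at 38.4 and 37, a ratio of -0.05, Per1 at 0.00 and Zbtb16 at -0.41 (interval -0.57 to -0.24). The list median was 0.33 outside the clusters with glial RNA and 0.02 without doublet calls.

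Host genes of small nucleolar RNAs, noncoding transcripts whose introns carry guides for ribosomal RNA modification, formed a further group. This list was written after Zfas1, Snhg8 and Epb41l4aos had appeared among the 12 highest genes, and its counts are a description. In all, 9 of 13 measured genes were at least 1.5-fold higher and 0 at least 1.5-fold lower in the AEVs library, with a median log2 ratio of 1.10, where 12.9% of all genes were higher. Zfas1 was at 15.1 in the PBS library and 48.5 in the AEVs library, a ratio of 1.69 (interval 1.38 to 2.01), Snhg8 at 15.1 and 47.4, a ratio of 1.65 (interval 1.34 to 1.98), and Gas5 at 81.5 and 178, a ratio of 1.12 (interval 0.98 to 1.27). Snhg14, the very long host transcript of the Ube3a region, was at 1686 and 1444, a ratio of -0.22. The ratio of Zfas1 was 1.51 in dorsal-type and 1.45 in inhibitory nuclei, and that of Gas5 0.97 and 1.17. Zfas1 and Epb41l4aos lie antisense to other genes, and whether reads were counted by strand is not given in the sources used here.

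Interferon response genes were higher in AEVs members, and fewer of them could be measured outside the clusters with glial RNA. Of 20 listed genes, 8 of 13 measured genes were at least 1.5-fold higher and 0 at least 1.5-fold lower in the AEVs library. Their median log2 ratio was 0.83, and all 13 were above 0. Of all genes, 12.9% were at least 1.5-fold higher, 2.24% at least 1.5-fold lower and 65% above 0. Ddx60 was at 4.3 in the PBS library and 11.8 in the AEVs library, Oasl2 at 2.96 and 7.24 and Ifit3 at 3.23 and 8.09, with ratios of 1.45, 1.29 and 1.33. Outside the clusters with glial RNA, where 12.4% of all genes were at least 1.5-fold higher and 2.45% lower, 6 of the list were measured, 2 were at least 1.5-fold higher and the median was 0.34. Ifit3 was at 0.52 there, from few UMIs. The medians with and without those clusters therefore rest on different genes. Summed over the 20 genes, AEVs over PBS was 1.65-fold (interval 1.52 to 1.80) in all members and 1.45-fold (interval 1.30 to 1.62) outside those clusters. The list median was 0.52 in dorsal-type and 0.53 in inhibitory nuclei. The part of glial RNA in these ratios was not tested.

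MHC class I genes, which present peptides on the cell surface, were higher with and without those clusters. In members 3 of 5 measured genes were at least 1.5-fold higher, with a median of 0.67, and 3 of 5 outside the clusters with glial RNA, with a median of 0.87, against 12.9% and 12.4% of all genes. H2-D1, a heavy chain, was at 35.8 and 65.4, a ratio of 0.87 (interval 0.65 to 1.09), and H2-K1 at 22 and 35.1, a ratio of 0.67 (interval 0.38 to 0.96). Outside those clusters H2-D1 was at 27.6 and 53.6. Tap2, a subunit of the peptide transporter, was at 6.05 and 11.2, a ratio of 0.89 (interval 0.34 to 1.45), and B2m, the light chain, at 58.2 and 87.3, a ratio of 0.58 (interval 0.40 to 0.77). After thinning, the list median was 0.32.

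Of 13 integrated stress response genes, 4 of 10 measured genes were at least 1.5-fold higher and 0 at least 1.5-fold lower in the AEVs library, with a median log2 ratio of 0.40, where 12.9% of all genes were higher and 2.24% lower. Ddit4, an inhibitor of mTOR signalling that stress hormones and low oxygen also raise, was at 9.01 in the PBS library and 28.2 in the AEVs library, a ratio of 1.65 (interval 1.24 to 2.07), and at 4.72 and 15 outside the clusters with glial RNA. Slc3a2, an amino acid transporter chain, was at 64.3 and 97.5, a ratio of 0.60 (interval 0.43 to 0.77), whereas Atf4, the central factor of the response, was at 0.21 and its target Asns at -0.09. Among antioxidant genes 4 of 12 were higher and 0 lower, against the same 12.9% and 2.24%, with a median of 0.41: Gstm1 was at 14.9 and 32.8, Prdx1 at 59.6 and 108, Prdx6 at 42.3 and 77.1 and Sod1 at 55.4 and 83.7. Prdx6, an astrocyte-rich gene, had a ratio of 0.86 in all members and 0.39 outside the clusters with glial RNA. Of the p53 targets, 2 of 11 were higher, Cdkn1a at 11.7 and 26.3 and Plk2 at 13 and 22.7, with a list median of 0.15, a count near the 12.9% of all genes.

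For nuclear-encoded genes of oxidative phosphorylation the count was that of all genes and the median slightly higher. In this list 3 of 24 were at least 1.5-fold higher and 0 lower, 22 had a ratio above 0, against 12.9%, 2.24% and 65% of all genes, and the median was 0.27, or 0.12 with TMM scaling. Ndufb9, a complex I subunit, was at 94.1 and 148, a ratio of 0.65 (interval 0.52 to 0.80), and Ndufa4 at 354 and 536, a ratio of 0.60 (interval 0.53 to 0.67). Genes of the shortest span class as a whole had a median of 0.36.

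Neurofilament genes were lower in AEVs members. Nefh, the heavy subunit that marks large-calibre axons, was at 133 in the PBS library and 64.2 in the AEVs library, a log2 ratio of -1.05 (interval -1.22 to -0.89), and had a UMI in 50.3% and 34.0% of members. The lower Nefh level was shared by other nuclei, with ratios of -0.70 in dorsal-type and -1.02 in inhibitory nuclei. In nuclei with at most 1 neuronal UMI Nefh was at 78 and 33.5, a ratio of -1.22. What part free RNA has in the level of Nefh in members was not tested. Nefm was at 318 and 209.8, a ratio of -0.60 (interval -0.69 to -0.50), and Nefl at 237 and 157, a ratio of -0.60 (interval -0.71 to -0.49). They were the 3 of 16 cytoskeletal genes that were at least 1.5-fold lower, with 0 higher and a list median of -0.16. Of all genes, 2.24% were at least 1.5-fold lower and 12.9% higher. Map2, Mapt and Tubb3 were near 0, at -0.13, -0.03 and 0.00. Clusters 2 and 9, where Nefh was highest, held more PBS than AEVs nuclei. With the same mix of clusters in both libraries the ratios were -0.81 for Nefh, -0.35 for Nefm and -0.44 for Nefl. Nefl and Nefm overlap on opposite strands of chromosome 14, so their reads may not be fully separate.

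Ion channel genes followed in part. Of 22 potassium and HCN channel genes, 0 were at least 1.5-fold higher and 2 lower, against 12.9% and 2.24% of all genes, with a median of -0.24. Among the lower was Kcna2, an axonal delayed rectifier, at 99.1 and 57.9 with a ratio of -0.77 (interval -0.95 to -0.60), or -0.63 with the same mix of clusters. Of 19 sodium and calcium channel genes, 2 were higher and 3 lower, against the same 12.9% and 2.24%. The higher were Scn3b at 13.2 and 22.6 and Cacna1h at 3.76 and 5.96. The lower were Cacna2d3 at 362 and 224, Scn2b at 26.8 and 17.5 and Cacna1i at 29.4 and 19.3. Cacna1h had only 28 and 42 UMIs and a ratio of 0.66 (interval -0.06 to 1.41), or 0.07 with the same mix of clusters.

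Transmitter receptors and synaptic genes differed little. For each count in this paragraph, the shares of all genes were 12.9% at least 1.5-fold higher and 2.24% lower. Of 9 AMPA and kainate receptor genes, 0 were at least 1.5-fold higher and 1 lower, which was Grik3, at 60.1 and 33.6, a ratio of -0.84 (interval -1.07 to -0.61); its ratio was -0.84 in dorsal-type and -0.07 in inhibitory nuclei. Gria2, the subunit that blocks calcium entry, was at 818 and 925, a ratio of 0.18 (interval 0.13 to 0.23). None of 5 measured NMDA receptor genes or 16 GABA and glycine receptor genes was past 1.5-fold, with list medians of -0.13 and 0.01, the latter -0.14 with TMM scaling. Of 6 metabotropic glutamate receptor genes 1, Grm4, was lower, at 23.1 and 15, a ratio of -0.62 (interval -0.98 to -0.26). Among 19 presynaptic genes 1 was higher, Stx1a, at 9.41 and 14.2, a ratio of 0.59 (interval 0.14 to 1.05) that turned to -0.12 after thinning, and among 19 postsynaptic and adhesion genes none was past 1.5-fold. The medians of these last 2 lists were -0.19 and -0.22. Slc12a5 and Slc12a2, which set neuronal chloride and so the sign of GABA signals, were at 158 and 169 and at 95.2 and 92.7, with ratios of 0.10 and -0.04.

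Neuropeptide genes were higher in AEVs members in several cases. Of 23 listed, 7 of 22 measured genes were at least 1.5-fold higher and 1 at least 1.5-fold lower in the AEVs library, with a median log2 ratio of 0.47, where 12.9% of all genes were higher and 2.24% lower. Penk, the enkephalin precursor, was at 223 in the PBS library and 342 in the AEVs library, a ratio of 0.62 (interval 0.53 to 0.71), and had a UMI in 35.8% and 42.6% of members. Nts was at 16.7 and 43.6, a ratio of 1.39 (interval 1.08 to 1.70), Adcyap1, which encodes PACAP, at 53.8 and 93, a ratio of 0.79 (interval 0.61 to 0.97), and Calca, the CGRP gene, at 5.24 and 9.08, a ratio of 0.79 (interval 0.20 to 1.41). Calcb, Vip and Crh rest on few nuclei: the 10 richest held 100% and 97.6% of Vip and 97.6% and 97.3% of Crh UMIs. Nmb was lower, at 5.65 and 3.41, a ratio of -0.73 (interval -1.52 to 0.03). Sst and Tac1 were at 203 and 252 and at 103 and 121, with ratios of 0.31 and 0.24. With the same mix of clusters the list median was 0.08, the Penk ratio 0.29 and the Nts ratio 0.99.

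Of the receptors for peptides, 3 of 11 were higher and 0 lower, against 12.9% and 2.24% of all genes. The list median was 0.08, where that of all genes was 0.13. The higher ones were Nmur2 at 3.36 and 5.96, Oprk1, the kappa opioid receptor, at 12.5 and 19.9, and Npy1r at 7.66 and 11.5, with ratios of 0.83, 0.67 and 0.59. The mu opioid receptor gene Oprm1 was at 55.4 and 47.4, a ratio of -0.22 (interval -0.44 to -0.01), and the delta receptor gene Oprd1 at -0.54.

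Between the libraries, no measured V2a, V3, dI1 or dI3 gene was past 1.5-fold, with Pou4f1 at -0.13 (interval -0.54 to 0.28). Zfhx3, at 589.9 and 399.5, had a ratio of -0.56 (interval -0.63 to -0.49) and Onecut2, at 45.8 and 33.6, -0.45 (interval -0.69 to -0.20); both intervals lie below 0. With TMM scaling Zfhx3 was at -0.71, and it was lower in 4 of the 6 clusters used below and higher in 2. Among dorsal factors Prrxl1 was at 3.63 and 8.23, a ratio of 1.18 (interval 0.50 to 1.90), against 0.04 in dorsal-type nuclei; the difference was not tested. Foxp2, found in both ventral inhibitory and some excitatory neurons, was at 57.9 and 35.1, a ratio of -0.72 (interval -0.96 to -0.50). It was the 1 lower gene of the inhibitory lineage list, in which 2 of 4 measured genes were higher, among them Lhx1 at 2.55 and 4.97, a ratio of 0.96 (interval 0.11 to 1.85). Of all genes, 12.9% were higher and 2.24% lower.

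Regeneration-associated genes showed no common direction. Of 19 listed, 2 of 18 measured genes were at least 1.5-fold higher and 1 at least 1.5-fold lower in the AEVs library, with a median log2 ratio of 0.02, or -0.13 with TMM scaling. Of all genes, 12.9% were higher and 2.24% lower. Klf6 and Gadd45a, stress-inducible regulators, were at 8.07 and 14.3 and at 8.2 and 13.6, with ratios of 0.83 (interval 0.35 to 1.32) and 0.73 (interval 0.25 to 1.22). Sprr1a was at 33.2 and 20.3, a ratio of -0.71 (interval -1.02 to -0.41) that rests on the few members described above and turned to 0.18 after thinning. Gap43, Jun, Sox11 and Stmn2 had ratios of -0.02, 0.03, -0.02 and 0.03. Of 21 immediate early genes 13 were measured, with 1 at least 1.5-fold higher, 1 at least 1.5-fold lower and a median of 0.19. Of these, 8 were above 0, against 65% of all genes. The lower was Egr1, at 16.8 and 10.6, a ratio of -0.66 (interval -1.09 to -0.23). The higher was Nptx2, a synaptic pentraxin, at 8.87 and 16.9, a ratio of 0.93 (interval 0.48 to 1.39). Summed over all 21, AEVs over PBS was 1.08-fold (interval 1.01 to 1.14). Some listed genes lay below the minimum of 50 UMIs. Among them Fosb had 22 and 3 UMIs, Nr4a3 26 and 9 and Egr4 14 and 6 in PBS and AEVs members, and the others are not given.

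Of 23 genes of axon guidance and myelin inhibition, 1 was higher, Ntn1, at 2.69 and 4.97, and 1 lower, Lingo1, a co-receptor for myelin inhibitors, at 73 and 45.4, a ratio of -0.68 (interval -0.89 to -0.48). For this and the other counts in this paragraph, the shares of all genes were 12.9% higher and 2.24% lower. Lingo1 was at -0.18 in dorsal-type and -0.22 in inhibitory nuclei; these differences were not tested. None of 11 measured neurotrophin and GDNF family receptor genes, 11 monoamine receptor genes or 12 cadherin and protocadherin genes was past 1.5-fold. Of 16 cholesterol synthesis genes 0 were higher and 1 lower, Idi1, at 17.6 and 9.65, a ratio of -0.87 (interval -1.31 to -0.43). The clock genes Dbp and Per2 were at 8.47 and 12.6 and at 21.4 and 17.5, with ratios of 0.58 and -0.29. Of 11 genes that peak in the evening 0 were past 1.5-fold, and of 5 measured morning genes 2 were higher, Cry1 at 0.66 and Nfil3 at 1.00, which turned to -0.18 after thinning.

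**Figure D3:**
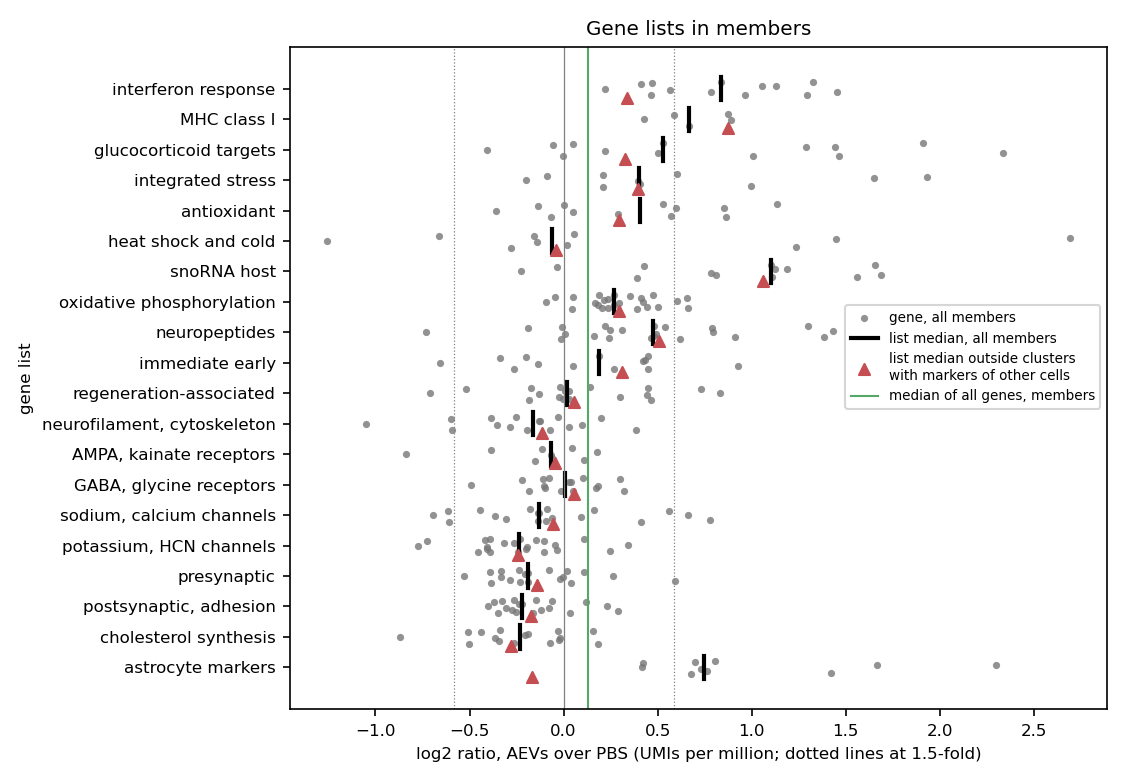
Log2 ratio of AEVs over PBS in members (horizontal axis) for each measured gene (grey points) of 20 lists, with the list median over all members (black bars) and outside the clusters with markers of other cells (red triangles). The green line is the median of all genes, 0.13. The interferon and astrocyte lists move left when those clusters are left out, to 0.34 and -0.17, over fewer measured genes. The MHC class I list moves to 0.87.

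RNA of other cells differed between the libraries and is given as a measurement. Of 10 astrocyte markers, 8 were at least 1.5-fold higher in AEVs members, against 12.9% of all genes. Their median was 0.75 and their summed level 243 and 418 CPM. Outside the clusters with glial RNA the sums were 120.5 and 114 and the median was -0.17. There 0 of 6 measured markers were higher and 2 lower, against 12.4% and 2.45% of all genes. Oligodendrocyte markers summed to 1069.9 and 1065 in all members and 335 and 339.6 outside those clusters. Microglia and macrophage markers summed to 252 and 299. The fibroblast collagens were lower in AEVs members, Col1a1 at 13.2 and 2.55 with a ratio of -2.37 (interval -3.18 to -1.63), and in dorsal-type nuclei the ratio was -3.54.

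Ratios were also read inside clusters of members, a step and a choice of genes made after seeing the values. In the 6 clusters with fewer than 4 raised markers of any other cell type and at least 25 nuclei of each library, Cirbp, Rbm3, Zfas1, Gas5, Snhg8, Mt1, Mt2, Ddit4 and H2-D1 were higher in the AEVs library in 6 of 6, and Hsph1, Kcna2 and Spink10 lower in 6 of 6. Nefh was lower in 5 of 6, with ratios from -1.17 to 0.25, Nefm in 5 and Nefl in 4. Penk was higher in 5 of 6, from -0.11 to 1.02. Grik3 was higher in 3 and lower in 3. These clusters share the 2 libraries and are not replicates.

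**Figure D4:**
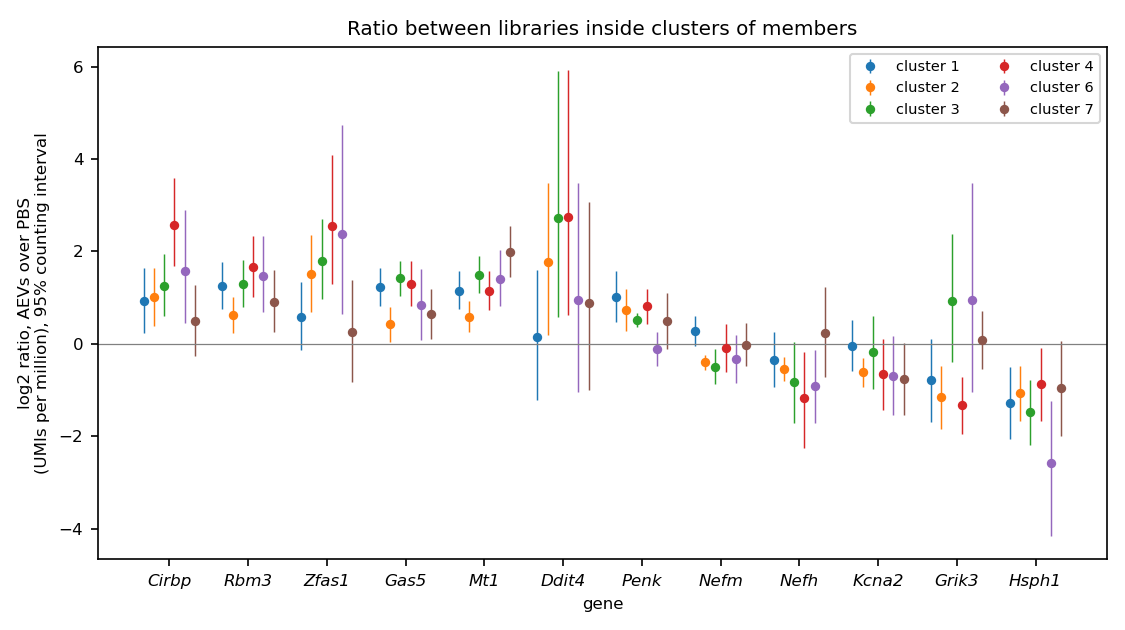
Log2 ratio of AEVs over PBS (vertical axis, from CPM) of 12 genes inside the 6 clusters of members with at least 25 nuclei of each library (colours), with exact 95% counting intervals. Cirbp, Rbm3, Zfas1, Gas5 and Mt1 lie above 0 and Hsph1 below 0 in all 6 clusters, while Grik3 lies on both sides. Some intervals of these genes cross 0 (Cirbp, Zfas1 and Hsph1 in cluster 7 and Zfas1 in cluster 1).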

How the data were processed

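The matrices were deposited as unscaled UMI counts, with 1 library per group. Per the labels' protocols, nuclei of frozen cord were captured with a SeekGene droplet kit that reads 3-prime ends, and sequenced on a NovaSeq X Plus. The submitters' processing notes name mm10 and Seurat. For the aligner, the strand setting and any removal of free RNA or doublets nothing is given in the sources used here. Members and gene lists were chosen with earlier results of these data known.

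UMIs were summed over members of each library and divided by their total. Genes with at least 50 UMIs over both libraries were called at 1.5-fold. Levels carry exact Poisson, ratios exact conditional binomial and shares exact Clopper-Pearson 95% intervals. Members were clustered with scanpy 1.11.5 (2000 variable genes, 20 components, 15 neighbours, Leiden at resolution 0.8), and doublets were called by Scrublet and kept in the main values. TMM factors came from edgeR 4.0.16 and median-of-ratios factors from DESeq2 1.42.0; no count model was fitted. Positions come from GENCODE M21, in which 32158 of 32285 identifiers were found. Named genes were the 12 highest and 12 lowest ratios (at least 50 UMIs and 5% of nuclei in the higher library, and at least 0.5 of the level in nuclei with at most 1 neuronal UMI, without mitochondrial, ribosomal, haemoglobin and unnamed genes), the 10 highest and lowest against dorsal-type nuclei, and the extremes of each list. Ddit3, Snhg4 and Snhg7 were listed but not analysed here. Some genes that these rules name are not reported here. Ratio recovery was tested on simulated data.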

Additional observations from a re-analysis of the deposited data

Results flagged for a closer look

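Of the named and listed genes with at least 50 UMIs in both classes, 2 were at least 1.5-fold higher in AEVs members and at least 1.5-fold lower in AEVs dorsal-type nuclei, a difference between classes that was not tested. Crh, corticotropin-releasing hormone, was at 16.7 and 31.4 CPM in members, a log2 ratio of 0.91, and at 43.6 and 22.5 in dorsal-type nuclei, a ratio of -0.95. Its UMIs lay in 13 PBS and 16 AEVs members, and the ratio in members was -0.12 after thinning and -0.86 with stricter members (at least 2 Slc17a6 and 0 inhibitory UMIs). Slc7a11, the cystine transporter, was at 2.82 and 10.8 in members, a ratio of 1.93, and at 11.9 and 7.03 in dorsal-type nuclei, a ratio of -0.76. Without doublet calls the ratio in members was -0.11, within 1.5-fold.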

How the results depend on the processing

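No paired analysis was possible because each group is 1 library, and for the same reason no replicate could be left out. Over all genes, the share at least 1.5-fold higher in AEVs members, 12.9%, was 7.46% with TMM scaling, 7.86% with median-of-ratios scaling and 8.13% with genes of at least 200 UMIs. The share at least 1.5-fold lower, 2.24%, was 4.72% and 4.26% with the 2 scalings, 3.47% with genes of at least 20 UMIs and 1.35% with at least 200. Of the list genes, 13.3% were higher, against 8.21% after thinning and 8.11% with genes of at least 200 UMIs, and 4.34% lower, against 8.67% and 7.47% with the 2 scalings. The scalings lower every log2 ratio by a constant, and the higher minimum leaves fewer genes tested. Of the 1668 genes past 1.5-fold higher, 967 remained with TMM scaling, 1378 outside the clusters with glial RNA and 1325 without doublet calls.

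Of 168 genes followed under 9 alternatives, 9 of 1512 values reversed, that is, changed sign for a gene past 1.5-fold. A further 222 lay outside the counting interval of the main ratio, 44 of them after thinning and 43 with TMM scaling. Crh, at 0.91, was at -0.12 after thinning and -0.86 with stricter members. After thinning Stx1a was at -0.12, Sprr1a at 0.18, Nfil3 at -0.18 and Xaf1 at -0.091. Without doublet calls Slc7a11 was at -0.11 and Xaf1 at -0.34, and Xaf1 was at -0.24 outside the clusters with glial RNA. The astrocyte marker median was -0.98 without doublet calls and -0.17 outside those clusters. The cause was not tested. The leaving out of those clusters and the equal mix of clusters were chosen after seeing the data. The ratio of member shares stayed between 0.842 and 0.891 in all 6 alternatives, the clusters numbered 10 and 16 at resolutions 0.5 and 1.2, and thinning left members against dorsal-type nuclei at 6.13% of genes higher and 5.7% lower.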

Other observations

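Peptide and receptor genes differed between the clusters of members, which these genes also helped to form. Adcyap1 was at 673 CPM in cluster 11, the Sprr1a-led cluster, where Npy was at 450.1 and Nts at 156. Penk was at 1829 in cluster 12 and 2024 in cluster 13, and Tacr1 was highest in cluster 4, at 117.

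Outside the rule, 1 PBS and 7 AEVs barcodes with at most 1500 UMIs met every other condition and were not used.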
